A study of Mus musculus with 5 samples.

Results

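Solute carriers are membrane proteins that move amino acids, sugars, nucleosides, ions, metals, organic anions and mitochondrial metabolites across a membrane, and their gene symbols begin with Slc. Some work at the cell surface, some in lysosomes, the Golgi apparatus or mitochondria, and several amino acid carriers need a partner protein to reach the surface. In the heart, capillary endothelium passes nutrients to muscle, lymphatic endothelium takes up interstitial fluid, fibroblasts build matrix, and resident macrophages digest what they engulf. The genes described here come from all rows with a symbol starting with Slc in the union of 5 deposited tables. They reached 20 CPM in at least 1 library, and Slc2a1, Slc40a1, Slc11a1 and Slc11a2 were left out. For this choice, deposited values were taken off the log scale, summed over cells and scaled to CPM, so each cell weighs the same. Levels in the cell classes and sorts below are instead UMI counts scaled to a common total. The scales differ. In cKit-/DDR2+, Slc37a3 stood at 20.03 CPM on the first and 22.96 on the second, and Slc26a10 at 219 and 118 CPM. The genes were thus chosen by their whole-library level, in the same cells that are described below. Of 293 such rows among 17902 genes, 100 reached that level, and 98 remained after 2 of the 4 named genes were left out. A further 191 stayed under 20 CPM in every library. The threshold has no natural gap, since Slc37a3 (20.03 CPM in its best library), Slc16a10 (21.6) and Slc39a14 (22.0) lay just inside it and Slc6a8 (19.9), Slc36a1 (19.8) and Slc33a1 (19.8) just outside. All 98 match a protein-coding gene of GENCODE M21. They include 3 genes named after a carrier that are not carriers themselves, the scaffolds Slc9a3r1 and Slc9a3r2 and the gene Slc7a6os.

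The cells are adult mouse cardiac interstitial cells, freed with collagenase, cleared of cardiomyocytes and sorted by flow cytometry on the surface receptors cKit and DDR2, with CD45, the phosphatase of leukocytes, parting the double-positive cells. Of the 4 sorts, cKit+/DDR2- has replicates 1 and 2, while double-positive CD45+ cells, double-positive CD45- cells and cKit-/DDR2+ cells have a single library each; the double-positive sorts are written cKit+/DDR2+/CD45+ and cKit+/DDR2+/CD45- below. The labels used here give no strain, genotype, exact age or number of animals, and no treatment. Each library was made with droplet-based 3' chemistry, which tags each captured transcript with its own molecular barcode, or UMI. The libraries held 436 to 3898 cells and 4047326 to 44847778 UMIs, with medians of 7529 to 10972 UMIs per cell. Since 3 sorts have a single library, differences between sorts are described by rules of size, without a test or p-value. Intervals in brackets are 95% Poisson intervals unless named otherwise and cover counting error only.

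The libraries stand apart in ways that the sorts do not set. The gene model Gm42418 took 9.09% of UMIs in cKit+/DDR2- replicate 2 and 10.6% in cKit+/DDR2+/CD45-, against 0.980% to 1.39% in the other 3 libraries. Xist, the transcript of the inactive X chromosome, followed the same split, with 496 and 757 CPM in those libraries and at most 0.0669 CPM or no listing elsewhere, and the Y-linked Ddx3y was listed only in the other 3 libraries, at 58.8 to 98.6 CPM. Differences between libraries across that split cannot be told apart from sex. Further, 190 cell barcodes occur both in cKit+/DDR2- replicate 1 (43.6% of its cells) and in cKit+/DDR2+/CD45+ (4.87%), while any other pair of libraries shares at most 3. All 190 had fewer UMIs in cKit+/DDR2+/CD45+, with a median of 622.5 there against 12133.5, from 4.15% to 7.48% of the number in the other library. Removing them from cKit+/DDR2+/CD45+ left the carriers that mark a class by the rule given below as they were (16 carriers with and 16 without, all 16 shared).

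Cells were placed in classes by 1 gene each, on the deposited log scale: Rbp7 of at least 3 for capillary endothelium, Npr3 of at least 1.5 for endocardium, Prox1 above 0 for lymphatic endothelium, Pdgfra above 0 for fibroblasts, Kcnj8 above 0 for pericytes and C1qa of at least 3 for macrophages. Cells passing 2 or more gates, 3.34% to 9.19% of a library, were left out, and a class entered in a library only with 50 cells. A further 8.52% to 30.4% of the cells of a library passed no gate and are in no class. This gave 821 capillary-like cells in 3 libraries, 1873 endocardial-like cells in 4, 365 lymphatic-like cells in 3, 985 fibroblast-like cells in 2, 76 Kcnj8-gated cells in 1 (cKit-/DDR2+) and 3755 macrophage-like cells in 2. Further markers, without the gate gene, were highest in the class they name. Capillary markers summed to 26905 to 36795 CPM in Rbp7-gated cells, lymphatic markers to 25203 to 37452 CPM in Prox1-gated cells, fibroblast markers to 47978 to 62096 CPM in Pdgfra-gated cells, macrophage markers to 8611 to 9453 CPM in C1qa-gated cells and endocardial markers to 4969 to 6118 CPM in Npr3-gated cells. Endocardial-like cells also carried 2331 to 3206 CPM of fibroblast markers, nearly all of it Dcn (mean 2355 CPM) and Lum (442 CPM), while Gsn, Col1a1, Col3a1 and Dpt summed to 86.0 CPM there against 34466 CPM in fibroblast-like cells. In Kcnj8-gated cells all 6 pericyte markers were at their highest (9421 CPM in sum), but capillary markers summed to 14991 CPM, of which Fabp4 made 11740 CPM and the other 5 made 3251 CPM against 7955 CPM in capillary-like cells. Since this class carried both marker sets, it is called Kcnj8-gated and not pericytes. Of the 179 cells passing the Kcnj8 gate in cKit-/DDR2+, 103 (57.5%) also passed another gate and were left out. Lymphatic-like cells of cKit+/DDR2+/CD45- also carried 1564 CPM of endocardial and 1408 CPM of fibroblast markers. In those of cKit+/DDR2- replicates 1 and 2, endocardial markers summed to 232 and 553 CPM and fibroblast markers to 44.2 and 569 CPM. In cKit+/DDR2+/CD45+, 59 of the 108 endocardial-like cells carried shared barcodes, and the class there had a median of 776.5 UMIs per cell. Without those barcodes 49 cells are left there, under the minimum, and the endocardial-like class then rests on 3 libraries.

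A carrier was said to mark a class where its mean level over the libraries of that class was at least 20 CPM, at least 2-fold above each other class after adding 1 CPM, and the highest of all classes in every library that allowed the comparison. The last condition of the rule compares few classes in some libraries. Kcnj8-gated cells share a library only with capillary-like and fibroblast-like cells, so their contrast with other classes is between libraries. In cKit+/DDR2+/CD45+ the macrophage-like cells are set only against endocardial-like cells. Without the shared barcodes no other class is left in that library. The condition then covers macrophage-like cells only in cKit+/DDR2- replicate 2. By this rule 16 of the 98 genes marked a class, against 16.2% of 7770 genes of any name that reached 20 CPM on the scale used to choose the 98. The macrophage-like cells had 10 of the 98 (10.2%; all genes, 7.62%), the lymphatic-like cells 3 (3.06%; 2.1%), and the capillary-like, fibroblast-like and Kcnj8-gated cells 1 each (1.02%; all genes, 1.02%, 3.17% and 0.772%). No carrier marked the endocardial-like cells (all genes, 1.57%). The rule that chose the genes uses these same cells and names this pattern, so the counts are a description. Without the cKit-/DDR2+ library, which alone holds the Kcnj8-gated cells, 29 carriers marked a class, 15 of them among the 16.

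**Figure D1:**
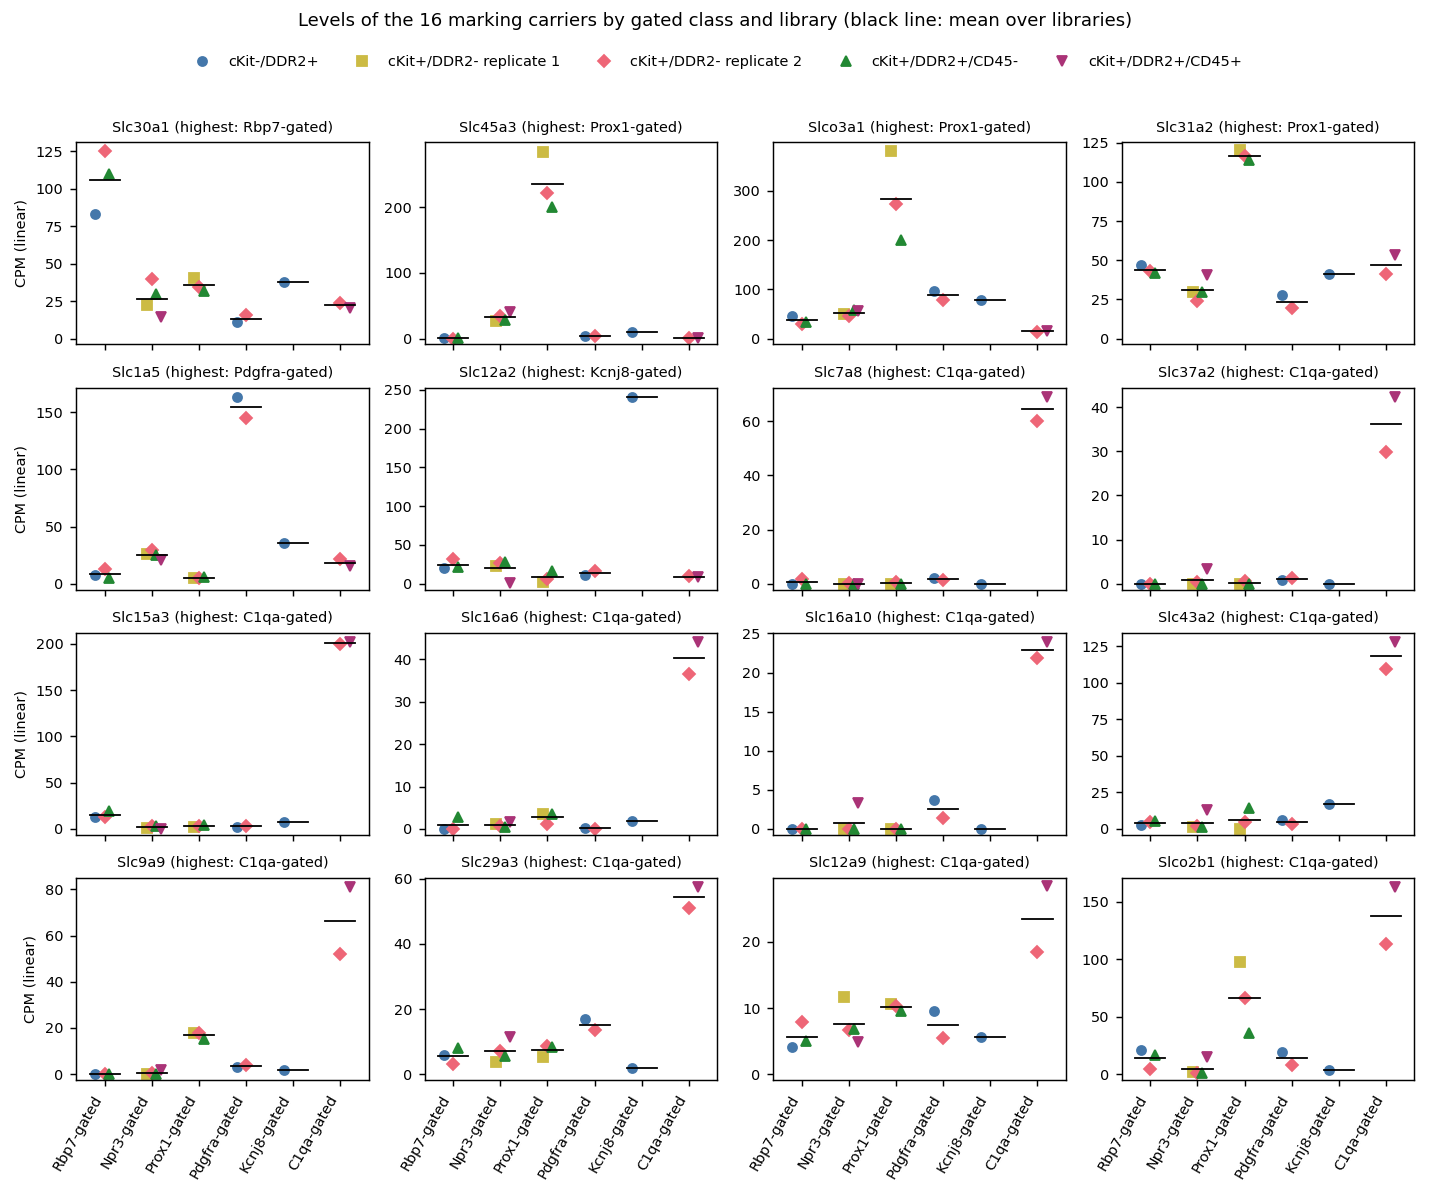
CPM (y axis, linear) of each of the 16 marking carriers in 6 gated classes (x axis); points are libraries, and black lines are means over the libraries of a class. Slc7a8 and Slc37a2 sit near 0 outside the C1qa-gated cells, Slc15a3 reaches 19.4 CPM in Rbp7-gated cells, and Slco2b1 and Slc9a9 also show a second level in Prox1-gated cells.

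Sequence before the annotated start was taken from RefSeq (GRCm38.p6, the same assembly as mm10) for 4 carriers, 2 of them highest in capillary-like cells and 1 each in lymphatic-like and macrophage-like cells. They are Slc30a1, highest in capillary-like cells (chr1:191906531-191906780, plus strand), Slc45a3, highest in lymphatic-like cells (chr1:131962665-131962914, plus strand, the first of 2 annotated starts), Slc37a2, highest in macrophage-like cells (chr9:37255739-37255988, minus strand), and Slc28a2, abundant in capillary-like cells (chr2:122426185-122426434, plus strand). Each line runs 5′ to 3′ over the 250 bases before the start, and capitals mark a metal response element (TGCACNC or TGCGCNC) or a GC box (GGGCGGGG) on either strand. These motifs were searched together with a PU.1 motif, a forkhead motif and an E-box.
Slc30a1: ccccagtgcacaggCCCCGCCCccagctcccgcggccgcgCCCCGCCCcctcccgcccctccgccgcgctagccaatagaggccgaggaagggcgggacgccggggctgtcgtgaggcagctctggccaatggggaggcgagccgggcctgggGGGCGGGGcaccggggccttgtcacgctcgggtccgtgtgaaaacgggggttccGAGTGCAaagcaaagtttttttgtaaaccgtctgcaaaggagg
Slc45a3: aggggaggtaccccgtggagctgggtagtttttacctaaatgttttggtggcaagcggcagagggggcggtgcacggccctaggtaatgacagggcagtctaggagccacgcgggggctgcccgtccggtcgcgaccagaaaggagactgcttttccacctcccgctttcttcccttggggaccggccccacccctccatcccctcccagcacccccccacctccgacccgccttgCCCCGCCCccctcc
Slc37a2: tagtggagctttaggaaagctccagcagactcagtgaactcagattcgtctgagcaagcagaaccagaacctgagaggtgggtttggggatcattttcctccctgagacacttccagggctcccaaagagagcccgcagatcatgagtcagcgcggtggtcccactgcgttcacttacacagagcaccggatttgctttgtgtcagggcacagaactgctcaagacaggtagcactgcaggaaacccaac
Slc28a2: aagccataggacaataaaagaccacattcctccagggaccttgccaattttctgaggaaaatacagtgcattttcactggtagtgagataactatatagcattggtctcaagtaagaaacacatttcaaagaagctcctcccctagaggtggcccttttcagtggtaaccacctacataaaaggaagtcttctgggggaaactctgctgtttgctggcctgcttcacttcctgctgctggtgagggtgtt

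The Slc30a1 window held 3 GC boxes and 1 metal response element, which began 43 bases before the start on the minus strand. The Slc45a3 window held 1 GC box, and the windows of Slc37a2 and Slc28a2 held none of the 5 motifs. Over 32841 windows of the same length, from genes at any level, 21.4% held a metal response element and 16.1% a GC box. The 98 genes were chosen for their level, so their windows and all windows are unlike sets. Windows were found for 76 of the 98 genes (106 windows), of which 25.5% held a metal response element and 34.0% a GC box. The PU.1 motif GAGGAAGT, bound by a transcription factor of myeloid cells, was in 2.44% of all windows and in 0 of the 11 windows of carriers marking macrophage-like cells. The forkhead motif GTAAACA was in 3.17% of all windows and in 0 of the 106. The E-box CACGTG was in 6.02% of all windows and in 7.55% of the 106. No window was used for Slc12a2, Slc15a3, Slc16a6, Slc1a5 and Slco3a1.

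Macrophage-like cells carried amino acid, peptide and organic acid carriers, several of them near 0 elsewhere. Slc7a8 (chromosome 14, 54722209 to 54781946, minus strand), the LAT2 light chain for neutral amino acids, stood at 59.9 CPM (53.2 to 67.3) in macrophage-like cells of cKit+/DDR2- replicate 2 and at 68.9 CPM (66.4 to 71.6) in those of cKit+/DDR2+/CD45+. In the 13 other class and library pairs it lay between 0 and 1.99 CPM, so the groups did not overlap. The cKit+/DDR2+/CD45- library does not list it, which leaves room for up to 2 cells with a UMI. Its partner Slc3a2, the heavy chain that carries such light chains to the surface, was the most abundant carrier of macrophage-like cells at 357 and 391 CPM, against 112 to 224 CPM in the other classes. Slc3a2 missed the rule, with a log2 ratio of 0.96 to the endocardial-like cells. Slc7a7, the y+LAT1 light chain, stood at 63.3 and 76.4 CPM in macrophage-like cells, 32.02 to 42.4 CPM in lymphatic-like cells and at most 11.4 CPM elsewhere. Slc43a2, the uniporter LAT4, stood at 109 and 128 CPM in macrophage-like cells and at most 16.9 CPM elsewhere.

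The peptide and histidine carriers of the Slc15 family were all highest in macrophage-like cells. Slc15a3 (chromosome 19, 10839727 to 10859362, plus strand), a lysosomal member, stood at 199.8 CPM (187 to 213) in cKit+/DDR2- replicate 2 and 202 CPM (197 to 206) in cKit+/DDR2+/CD45+. The capillary-like cells came next at 12.7 to 19.4 CPM, and the remaining classes had at most 7.53 CPM. Slc15a4, its lysosomal relative, had 38.1 and 52.6 CPM in macrophage-like cells against 26.4 CPM in Kcnj8-gated cells. Slc15a2, a peptide carrier of the cell surface, had 35.7 and 38.1 CPM against 22.6 CPM there. Both missed the rule only against the Kcnj8-gated cells and passed it when that class was left out. Slc29a3, a lysosomal nucleoside carrier, stood at 51.1 and 57.5 CPM in macrophage-like cells and at most 16.8 CPM elsewhere.

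Sugar phosphate, organic acid and ion carriers completed the macrophage-like set. Slc37a2 (chromosome 9, 37227585 to 37255738, minus strand), a sugar phosphate exchanger of the endoplasmic reticulum, had 29.9 and 42.3 CPM in macrophage-like cells and at most 3.26 CPM in any other class. Slc16a6 had 36.6 and 44.0 CPM against at most 3.56 CPM, and Slc16a10, an aromatic amino acid carrier, 21.9 and 23.9 CPM against at most 3.65 CPM. Slc9a9, a sodium-proton exchanger of endosomes, had 51.9 and 80.9 CPM, with 15.4 to 17.7 CPM in lymphatic-like cells. Slc12a9 had 18.5 and 28.4 CPM against at most 11.6 CPM. Slco2b1, an organic anion carrier, had 113 and 162 CPM, with 35.6, 66.3 and 97.2 CPM in lymphatic-like cells. Slc12a9 and Slco2b1 passed narrowly (log2 ratios 1.13 and 1.04), and both missed the rule without the cKit+/DDR2+/CD45+ library. Slco2b1 also missed it without cKit+/DDR2+/CD45-, with a second marker in each gate and with the mean over cells. With 5 CPM added both missed it, and with cells of 2 or more gates kept so did Slc29a3. Of the macrophage markers, Mrc1 averaged 184 CPM in lymphatic-like cells, and the other 5 summed to 13.3 CPM there against 8141 CPM in macrophage-like cells. Without the Kcnj8-gated class, or without the whole cKit-/DDR2+ library, 16 carriers marked the macrophage-like cells.

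Lymphatic-like cells were set apart by a sugar, an organic anion and a copper carrier. Slc45a3 (chromosome 1, 131962967 to 131982969, plus strand), a proton-coupled sugar carrier, stood at 285 CPM (242 to 332) in cKit+/DDR2- replicate 1, 222 CPM (199 to 246) in replicate 2 and 200.4 CPM (171 to 233) in cKit+/DDR2+/CD45-. Endocardial-like cells had 26.4 to 40.8 CPM, and the other classes at most 9.41 CPM. It overlaps the noncoding gene model Gm29103 on the same strand. Its log2 range over the 6 classes, 7.46, was the widest of all 98 genes. After each cell of cKit+/DDR2- replicate 2 was thinned to 1000 UMIs, 18.4% of lymphatic-like cells (exact Clopper-Pearson interval 13.4 to 24.3) held a Slc45a3 UMI against 3.61% of endocardial-like cells (2.62 to 4.83). Before thinning the shares were 74.5% and 25.04% at median depths of 7678 and 9729 UMIs, with 0.202% of macrophage-like cells at a median of 9328 UMIs.

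Slco3a1 (chromosome 7, 74275419 to 74554780, minus strand), an organic anion and prostaglandin carrier, stood at 380, 273 and 200.4 CPM in the lymphatic-like cells of the 3 libraries. Its spread there was wide (284 ± 90.4 CPM, SD, n = 3 libraries), and fibroblast-like cells followed at 79.0 and 97.5 CPM. The lymphatic-like cells of cKit+/DDR2+/CD45- carried the most endocardial and fibroblast markers of the 3 libraries, and how this bears on their carrier levels was not tested. Slc31a2, a copper carrier, was steady at 114 to 120.2 CPM in lymphatic-like cells and at most 53.1 CPM in all others. Slco2a1, the prostaglandin uptake carrier, had 30.1 to 75.9 CPM in lymphatic-like cells and 19.6 to 36.2 CPM in endocardial-like cells, so those classes overlapped, while every other class had at most 7.43 CPM. Slc10a6, a carrier of steroid sulfates, had 36.8 to 77.8 CPM in lymphatic-like cells and 19.6 and 34.2 CPM in fibroblast-like cells, and missed the rule at a log2 ratio of 0.98. Between 30.5% and 52.1% of the cells passing the Prox1 gate in these libraries also passed another gate and were left out. With such cells kept, none of the 3 carriers marked the lymphatic-like cells. Between the cKit+/DDR2- replicates, 5 of 56 carriers lay 2-fold apart in lymphatic-like cells, all higher in replicate 1 (all genes, 5.26%).

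The fibroblast-like cells had 1 marking carrier. Slc1a5 (chromosome 7, 16781340 to 16798274, plus strand), the glutamine carrier ASCT2, stood at 164 CPM (157 to 171) in cKit-/DDR2+ and 145 CPM (126 to 166) in cKit+/DDR2- replicate 2. The Kcnj8-gated cells followed at 35.8 CPM (21.5 to 55.9), endocardial-like cells had 21.2 to 29.9 CPM, and lymphatic-like cells 4.87 to 5.93 CPM. Slc44a1, a choline carrier, was also highest in fibroblast-like cells (131 and 176 CPM) but endocardial-like cells had 77.1 to 91.9 CPM. In fibroblast-like cells the count changed to 3 without cKit-/DDR2+ and to 2 without cKit+/DDR2- replicate 2, in each case with Slc1a5 among them. With cells of 2 or more gates kept, Slc1a5 did not mark them.

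The 98 genes summed to 0.542% to 0.670% of UMIs in capillary-like cells, which overlapped the Kcnj8-gated (0.581%) and lymphatic-like cells (0.492% to 0.577%). Endocardial-like cells had 0.405% to 0.446%, macrophage-like cells 0.438% and 0.466%, and fibroblast-like cells 0.464% and 0.446%. These sums include the scaffold Slc9a3r2, which is not a carrier. It was the most abundant of the 98 in capillary-like cells of each library. Its mean was 971 CPM there and 18.4 to 497 CPM in the other classes. Only Slc30a1 (chromosome 1, 191906767 to 191913247, plus strand), the zinc exporter of the cell surface, marked the capillary-like cells. It stood at 83.1 CPM (71.6 to 96.0) in cKit-/DDR2+, 125 CPM (99.2 to 156) in cKit+/DDR2- replicate 2 and 109.8 CPM (93.1 to 129) in cKit+/DDR2+/CD45-, and at 10.9 to 40.7 CPM in every other class. The count depends on the Kcnj8-gated cells, since 6 carriers marked capillary-like cells once that class was left out, and 5 and 2 did so without the cKit-/DDR2+ and cKit+/DDR2- replicate 2 libraries.

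The carriers added were Slc6a6, Slc28a2, Slc26a10, Slc39a10 and the scaffold Slc9a3r2. Slc6a6, the taurine carrier, stood at 854, 595 and 587 CPM in the capillary-like cells of cKit-/DDR2+, cKit+/DDR2- replicate 2 and cKit+/DDR2+/CD45-. Macrophage-like cells had 165 and 210.0 CPM, Kcnj8-gated cells 369 CPM and lymphatic-like cells 10.6 to 29.7 CPM. Slc28a2 (chromosome 2, 122426477 to 122461137, plus strand), a concentrative purine nucleoside carrier, had 214, 181 and 198 CPM in capillary-like cells, 115 CPM in Kcnj8-gated cells, 11.1 and 18.4 CPM in macrophage-like cells and at most 6.08 CPM elsewhere. It overlaps the gene model Gm14086 on the same strand, and how reads were split between them is not given in the sources used here. Slc26a10, of the anion exchanger family, had 391, 197 and 184 CPM in capillary-like and 192 CPM in Kcnj8-gated cells, and at most 28.2 CPM elsewhere. Slc39a10, a zinc importer, had 65.6 to 69.6 CPM in capillary-like and 47.1 CPM in Kcnj8-gated cells.

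A narrower gate was also applied to the Kcnj8-gated cells. Among them, 27, fewer than the minimum of 50, had no UMI of the endothelial cadherin Cdh5, and in those cells capillary markers summed to 2142 CPM and pericyte markers to 16690 CPM. Leaving out cells with Cdh5 lowers capillary RNA by construction, so the following levels are a description and do not show where the RNA came from. Slc6a6 then stood at 14.5 CPM instead of 369, Slc28a2 at 14.5 instead of 115, Slc26a10 at 21.7 instead of 192, and Slc39a10 was at 0, with 1 UMI being worth about 7 CPM. Slc12a2, the NKCC1 cotransporter of sodium, potassium and chloride, stood at 499 CPM in those 27 cells and 241 CPM (201 to 286) in all 76. The other classes had at most 31.7 CPM of Slc12a2. After thinning to 1000 UMIs, 25.3% of Kcnj8-gated cells (exact Clopper-Pearson interval over cells, 15.99 to 36.7) and 0.946% of capillary-like cells of that library held a Slc12a2 UMI. The unthinned shares were 61.8% and 8.72% at median depths of 6137 and 5164.5 UMIs. With this narrower gate, chosen after the levels were seen, 25 carriers marked a class, 16 of them as before.

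**Figure D2:**
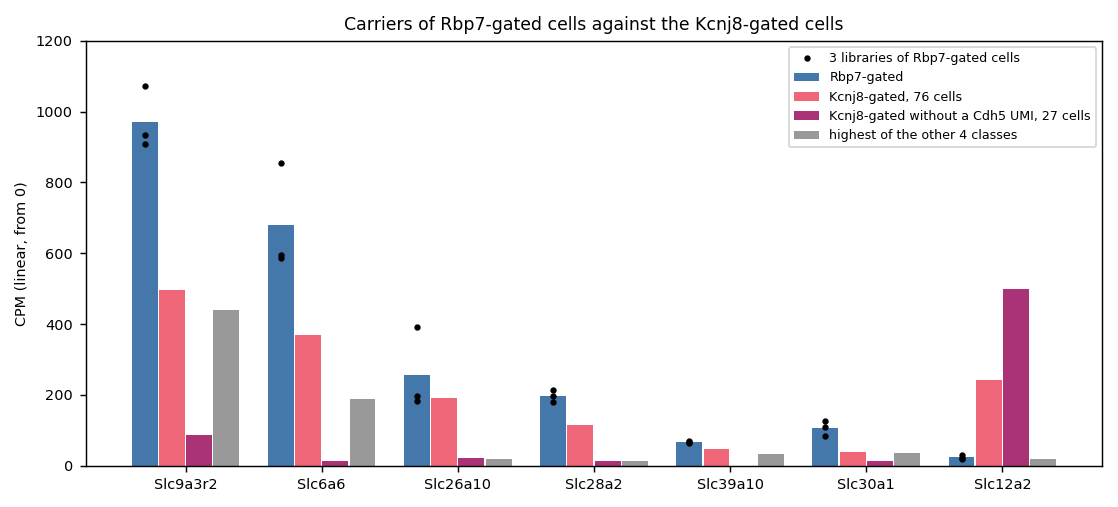
Mean CPM (y axis, linear from 0) of 7 genes in Rbp7-gated cells, in all 76 Kcnj8-gated cells, in the 27 Kcnj8-gated cells without a Cdh5 UMI and in the highest of the other 4 classes; black points are the 3 libraries of Rbp7-gated cells. Slc6a6, Slc26a10 and Slc28a2 are lower in the narrower Kcnj8 gate, and Slc12a2 is higher there.

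No carrier marked the endocardial-like cells, although 7 were highest in them. Slc29a1, the equilibrative nucleoside carrier ENT1, had 144 to 233 CPM in endocardial-like cells, with 99.2 to 129 CPM in lymphatic-like and 83.1 and 138 CPM in fibroblast-like cells. Slc44a2, a choline carrier relative, had 161 to 190.0 CPM in endocardial-like cells, 90.4 to 173 CPM in capillary-like cells and 7.36 and 8.96 CPM in macrophage-like cells. Members of some families were highest in different classes. In the Slc29 family ENT1 was highest in endocardial-like and Slc29a3 in macrophage-like cells, and in the Slc43 family Slc43a3, a purine base carrier, had 224.9 to 316 CPM in capillary-like and fibroblast-like cells, 157 to 258 CPM in lymphatic-like cells and 2.73 and 3.31 CPM in macrophage-like cells, where Slc43a2 was highest.

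Genes were grouped by the usual substrate of their family, so that Slc43a3 counts with the amino acid carriers and Slc16a10 with the monocarboxylate carriers. For each gene the log2 range between its highest and lowest class was taken. Its median was 1.74 over the 98 genes and 1.32 over all genes at 20 CPM. The 18 Slc25 genes had a median of 1.05 and none marked a class. The phosphate carrier Slc25a3 stood at 249 to 414 CPM across all class and library pairs, and the ADP/ATP carrier Slc25a4 at 268 to 522 CPM outside macrophage-like cells and at 130.01 and 154 CPM in them. Slc25a5 is a near copy of Slc25a4 and had 310.4 and 353 CPM in macrophage-like cells against 88.9 to 122 CPM in endocardial-like cells. Reads that fit both genes could have been split, so those levels are uncertain. The 16 amino acid and peptide carriers had a median range of 3.33 with 4 marking (2.57 without Slc43a3), the 14 metal carriers 1.38 with 2 marking, and the 14 nucleoside and nucleotide sugar carriers 1.45 with 1 marking. Among sugar carriers the most abundant was Slc50a1, which moves glucose, at 47.7 to 225 CPM in all class and library pairs. Slc5a3 and Slc35a3 each overlap another coding gene on the same strand, and their levels are uncertain for that reason.

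**Figure D3:**
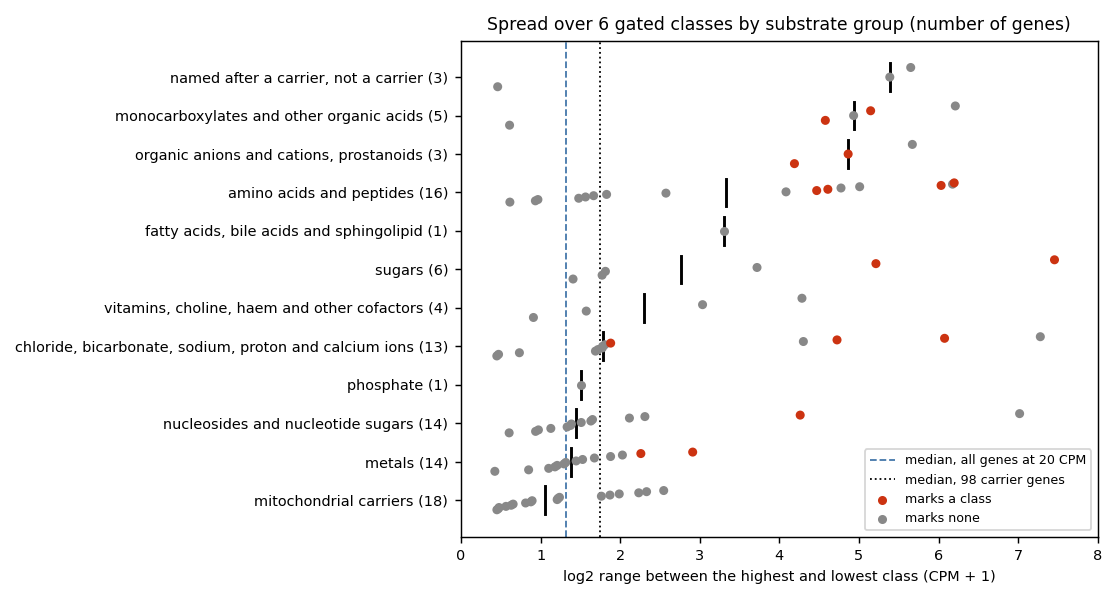
Log2 range between the highest and lowest of 6 classes (x axis, CPM + 1) for each gene by substrate group (y axis, number of genes in brackets); red points mark a class, black bars are group medians, and the broken and dotted lines are the medians of all genes at 20 CPM and of the 98 genes. The 18 Slc25 genes, grouped by family under the label mitochondrial carriers, have the lowest group median, 1.05, and none is red.

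Other transport genes, from a list of 42 that do not bear the Slc name, gave 15 marking genes of 34 at 20 CPM, 1 of which is the gate gene Kcnj8, whose place the gate fixes. Without it 14 of 33 marked a class (42.4%), against 16.2% of all genes at 20 CPM. Of the 14, 5 marked macrophage-like, 4 capillary-like, 3 endocardial-like, 1 Kcnj8-gated and 1 fibroblast-like cells. Cd36, Fabp4 and Abcc9 are also among the markers used to check the classes. The fatty acid receptor Cd36 averaged 4149 CPM in capillary-like against 1478 CPM in Kcnj8-gated cells, and the efflux pump Abcb1a 159 against 56.5 CPM. The sodium pump subunit Atp1b3 averaged 482 CPM and the fatty acid binding protein Fabp5 3893 CPM in endocardial-like cells. Abca8a, a lipid transporter, averaged 710 CPM in fibroblast-like cells, and Abcc9, the sulfonylurea receptor subunit that pairs with the Kcnj8 channel, 1009 CPM in Kcnj8-gated cells. Unc93b1, a chaperone of endosomal receptors, averaged 391 CPM and the efflux pump Abcc1 45.9 CPM in macrophage-like cells. The list was chosen with earlier results of these data known.

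Between sorts, whole libraries differ in which cells they hold, and in such sums fewer cells of a type and less RNA per cell cannot be told apart. A gene counted as apart where the CPM + 1 differed at least 2-fold, with 20 CPM and 20 UMIs on the higher side. The 3 whole-library comparisons and those within capillary-like and endocardial-like cells all share the cKit+/DDR2+/CD45- library. Against cKit-/DDR2+, 4 of 71 carriers were higher in cKit+/DDR2+/CD45- (all genes, 6.06%) and 5 lower (8.66%; 14.7% either way), with a median log2 ratio of -0.14 for carriers and -0.04 for all genes. Slc45a3 stood at 30.6 against 3.23 CPM, Slco2a1 at 28.1 against 10.6, Slc12a7, a potassium chloride cotransporter, at 26.5 against 10.8 and Slc45a4 at 27.05 against 12.8 CPM. On the lower side Slc1a5 stood at 21.4 against 112 CPM, Slc10a6 at 10.6 against 28.8, Slc35f5 at 13.6 against 30.0, Slc39a7, a zinc carrier of the secretory pathway, at 43.5 against 89.6 CPM and Slc48a1, a haem carrier, at 29.3 against 59.9 CPM. Cells passing the Pdgfra gate alone numbered 851 in the cKit-/DDR2+ library against 44 in cKit+/DDR2+/CD45-; for the Prox1 gate alone the numbers were 12 and 80.

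Against both cKit+/DDR2- libraries, 1 of 68 carriers was higher in cKit+/DDR2+/CD45- (all genes, 0.684%) and 3 were lower (2.84%; 3.53% either way). Slc26a10 stood at 67.0 CPM against 32.4 and 22.1 CPM in replicates 1 and 2. Slc15a3 stood at 8.04 against 21.5 and 43.3 CPM, Slco2b1 at 9.38 against 38.0 and 26.2, and Slc7a7 at 8.71 against 20.3 and 19.8 CPM. Single-gate macrophage-like cells numbered 1 in cKit+/DDR2+/CD45- and 22 and 495 in the cKit+/DDR2- libraries. Without replicate 1 the counts were 3 higher and 5 lower. The cKit+/DDR2- replicates themselves lay 2-fold apart for 5 of 76 carriers (all genes, 8.63%).

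The CD45 split gave the widest differences. Of 89 carriers, 24 were higher in cKit+/DDR2+/CD45+ than in cKit+/DDR2+/CD45- (all genes, 15.3%) and 19 lower (21.3%; 36.6% either way), with median log2 ratios of 0.07 for carriers and -0.15 for all genes. Slc43a2 stood at 119.8 against 3.52 CPM (log2 ratio 4.74) and Slc9a9 at 75.0 against 2.60 (4.40). Slc37a2 stood at 39.6 CPM against 0.167 CPM, the latter from 2 UMIs. Its exact interval, 6.03 to 10.93 on the log2 scale, is for the ratio without 1 CPM added. It is thus not on the scale of the log2 ratios of Slc43a2 and Slc9a9. Slc7a8 stood at 63.8 CPM against no listing. Lower were Slc26a10 (1.72 against 67.0 CPM), Slco2a1 (0.780 against 28.1), Slc43a3 (8.63 against 155.5) and Slc9a3r2 (30.3 against 444 CPM). The 10 carriers marking macrophage-like cells were all among the 24, which come from the same libraries, and 3260 of the 3898 cells of cKit+/DDR2+/CD45+ were single-gate macrophage-like cells.

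Within a class, fewer carriers lay 2-fold apart between sorts. In capillary-like cells 0 of 63 carriers were higher in cKit+/DDR2+/CD45- than in cKit-/DDR2+ (all genes, 1.19%) and 4 were lower (2.47%; 3.65% either way), with a median log2 ratio of -0.32 for carriers and -0.12 for all genes. Slc26a10 stood at 184 against 391 CPM, a log2 ratio of -1.08 (exact interval, without 1 CPM added, -1.29 to -0.89). Slc12a7 had 17.2 against 36.8, Slc20a1, a phosphate carrier, 20.8 against 43.1 and Slc17a5, the lysosomal sialic acid carrier, 10.1 against 23.8 CPM, from 14 to 96 UMIs each. These libraries lie on either side of the Gm42418 split. The capillary-like cells of cKit+/DDR2- replicate 2, on the same side as cKit+/DDR2+/CD45-, had 197 CPM of Slc26a10, 17.4 of Slc12a7, 26.96 of Slc20a1 and 12.7 of Slc17a5, each nearer to cKit+/DDR2+/CD45- than to cKit-/DDR2+. On that side of the split 1 of 47 carriers lay 2-fold apart between cKit+/DDR2+/CD45- and cKit+/DDR2- replicate 2 (all genes, 3.49%). Across the split, 3 of 59 did so between cKit+/DDR2- replicate 2 and cKit-/DDR2+ (4.98%), namely Slc12a7, Slc15a2 and Slco2b1, all lower in replicate 2. For Slc26a10, Slc12a7, Slc20a1 and Slc17a5, sort and split cannot be told apart.

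In endocardial-like cells 0 of 61 carriers were 2-fold apart from both cKit+/DDR2- libraries in either direction (all genes, 0.164% higher and 0.148% lower, 0.312% either way). The widest ratios were those of Slc45a4 (43.2 CPM against 23.9 and 29.8) and Slc7a6os (14.8 against 26.4 and 16.9). Between the cKit+/DDR2- replicates themselves, 5 of 66 carriers lay 2-fold apart in these cells (all genes, 2.87%). In macrophage-like cells 0 of 66 were apart between cKit+/DDR2+/CD45+ and cKit+/DDR2- replicate 2 (all genes, 0.558% higher and 0.715% lower, 1.27% either way). The widest there were Slc8b1, a mitochondrial sodium calcium exchanger, at 44.6 against 24.0 CPM, and Slc38a2, a neutral amino acid carrier, at 144 against 229 CPM. Differences of less than 2-fold were not tested, so these counts do not show that the carriers were alike.

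**Figure D4:**
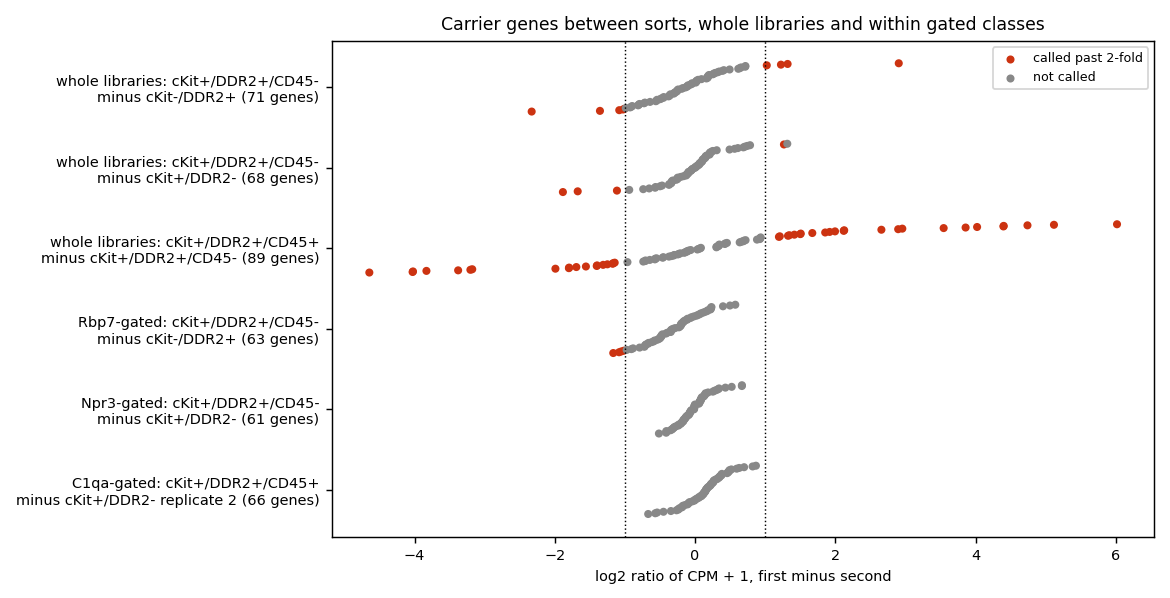
Log2 ratio of CPM + 1 (x axis) for the carriers tested in each of 6 comparisons (y axis); each point is a gene, red where called past 2-fold, and dotted lines stand at 2-fold. Whole-library comparisons hold 43, 9 and 4 called genes, Rbp7-gated cells 4, and Npr3-gated and C1qa-gated cells 0; 1 grey point beyond 2-fold was not 2-fold apart from both cKit+/DDR2- libraries.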

How the data were processed

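RNA of sorted mouse cardiac interstitial cells was counted by droplet single-cell sequencing in 5 libraries. Per the submitters' processing notes, Cell Ranger, Seurat 4.0.4 and the mm10 build were used; the version of Cell Ranger is not given in the sources used here. The deposited values are natural log values of 1 plus UMIs scaled to 10000 per cell by the authors. UMIs were recovered by dividing each cell's back-transformed values by its smallest non-zero value, and 100% were whole within 0.01. Few listed genes have UMIs in 1 cell (12 to 77 a library), as if genes needed UMIs in 3 cells to be kept, so a gene not listed, counted as 0 here, may have UMIs in up to 2 cells. UMIs were summed per gated class and library and scaled to CPM, with Python 3.11.15, numpy 2.4.6, scipy 1.17.1 and pandas 2.3.3. The choice of genes at 20 CPM in their best library used the back-transformed values summed over cells, not UMIs. Doublets were treated only by leaving out cells that passed 2 or more gates. Sorts come from the labels. The scripts were tested on simulated data. Named genes are up to 5 per class by ratio, up to 2 per substrate group by level, up to 4 per direction in each comparison, the 3 on each side of 20 CPM, and up to 2 other transport genes per class; further members were named after their values were seen. The members and lists were chosen with earlier results of these data known. Values of a few single members are not reported here.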

Additional observations from a re-analysis of the deposited data

Results flagged for a closer look

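Slc38a1, a neutral amino acid carrier, was higher in cells that passed no gate than in any gated class, in data that no comparison above uses. It stood at 87.94 CPM (95% Poisson interval 81.2 to 95.1, 621 cells) in the ungated cells of cKit+/DDR2- replicate 2 and at 91.42 CPM (80.5 to 103, 332 cells) in those of cKit+/DDR2+/CD45+. The highest class mean was 42.7 CPM, in macrophage-like cells. In the ungated cells of cKit+/DDR2- replicate 1, cKit+/DDR2+/CD45- and cKit-/DDR2+ it stood at 21.3, 13.6 and 6.60 CPM.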

How the results depend on the processing

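For the single named genes that were followed, no alternative turned the sign of a log2 ratio. Of their values under alternatives, 56 moved beyond a set margin and 201 did not. For genes followed between sorts, a minimum of 50 CPM or no minimum changes only which genes are tested. The log2 ratios under those settings could not move or turn, and they count among the 201. The numbers of carriers are counts, which have no direction to turn. Of these counts under alternatives, 57 moved beyond the margin and 126 did not. Carriers marking any class numbered 26 with classes of at least 20 cells, 9 at 4-fold and 51 with no minimum level among all carriers, and 26 without the Kcnj8-gated class and 25 with the Kcnj8 gate without Cdh5, both chosen after seeing the data. Per class, capillary-like counts were 5 with cells of 2 or more gates kept, 4 with a second marker, 3 with the mean over cells, 5 with 20 cells, 0 at 4-fold, 5 with no minimum and 6 under both Kcnj8 alternatives. Lymphatic-like counts were 0 with such cells kept, 1 at 4-fold and 8 with no minimum. Fibroblast-like counts were 0, 2 with the mean over cells and 6 with no minimum. Endocardial-like counts were 1 with the mean over cells and 3 with no minimum, Kcnj8-gated counts 11 with no minimum and 3 without Cdh5, and macrophage-like counts 6 at 4-fold, 6 at 50 CPM, 18 with no minimum and 16 without the Kcnj8-gated class. Leaving out 1 library gave 14 to 29 for any class, 1 to 5 for capillary-like, 0 to 1 for endocardial-like, 1 to 3 for fibroblast-like and 8 to 16 for macrophage-like cells; without cKit-/DDR2+ no Kcnj8-gated class was left.

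Between sorts, cKit+/DDR2+/CD45- against cKit-/DDR2+ gave 2 higher and 3 lower with the mean over cells, 0 and 3 at 50 CPM, and 2 and 2 with 5 CPM added. Against cKit+/DDR2- it gave 0 higher with the mean over cells, 0 lower at 50 CPM, 8 lower with no minimum and 0 higher with 5 CPM added, and 1 to 3 higher and 4 to 5 lower without either replicate. The CD45 comparison gave 12 higher and 10 lower at 50 CPM. Capillary-like cells gave 8 lower with the mean over cells, 1 lower at 50 CPM, 1 higher and 7 lower with no minimum, and 1 lower with 5 CPM added. Endocardial-like cells gave 0 to 1 higher and 1 lower without a replicate, and macrophage-like cells 1 lower with no minimum. The cause of these changes was not tested, beyond fewer or more genes passing a minimum. No paired analysis was possible because replicate numbers were given in accession order and pair no samples. Depth limits classes of few cells most, since 1 UMI in the Kcnj8-gated cells is worth 1.88 CPM.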
